A study of Mus musculus with 12 samples.

Results

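The 10 genes described here, of 55401 in the deposited tables, are those whose mRNA was most sensitive to Klf5 siRNA in 8-cell mouse embryos: Gng2, Serpinb9b, Kdelr3, Cdc42ep4, Spink2, Gm35248, 4930522L14Rik, Gm15389, Shisal2b and Lgals3. They were selected on their measured counts in these libraries, as the genes ranking highest in Klf5 KD against control or in double knockdown (dKD) against Nr5a2 KD, so that their low values in these contrasts come from the choice and are given below as a description, without a test. RNA-seq was performed on 12 libraries of 10 pooled embryos, of which 2 were control, 3 Nr5a2 KD, 3 Klf5 KD and 4 Nr5a2 Klf5 dKD. Zygotes from B6129F1 females (3 to 5 weeks old) and B6CBAF1 males were injected 8 to 9 h after fertilization with 15 µM control siRNA, 5 µM siRNA against Nr5a2 or 10 µM siRNA against Klf5, and the concentrations combined for the dKD were not separately stated. Embryos of every group, the controls included, also received 150 ng/µl H2B-EGFP mRNA as an injection marker. The knockdowns are transient and partial, and every library is a pool, so that a value averages over embryos and over the cells within them.

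KLF5 is a zinc-finger transcription factor of the Krüppel-like family, which binds GC-rich and CACCC-type DNA, and is known in the mouse embryo for its role in setting up both the trophectoderm and the inner cell mass. NR5A2 is an orphan nuclear receptor and pioneer factor, which can bind its site on nucleosomal DNA and is required for embryos to pass the morula stage. An siRNA injected into the zygote guides cleavage of the matching mRNA, so the protein runs down over the cleavage divisions. The study design crosses both siRNAs, which allows the effect of Klf5 siRNA to be read with Nr5a2 intact (Klf5 KD against control) and with Nr5a2 depleted (dKD against Nr5a2 KD).

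The libraries held 6676683 to 12560926 counts on genes. Nr5a2 mRNA was at 15.0% of control in Nr5a2 KD and 14.1% in dKD. Klf5 mRNA was at 24.8% of control in Klf5 KD, 31.2% in Nr5a2 KD and 12.7% in dKD, so the Nr5a2 KD libraries also carried less Klf5 mRNA. Scaled to the added ERCC spike-in RNA, these were 37.0, 51.5 and 21.0%. H2B-EGFP had 9 to 77 counts per library. Of 7 genes known from 8-cell embryos, all were detected, although Cdx2 had only 13 counts over the 12 libraries. Mitochondrially encoded genes took 4.41 to 13.2% of the counts, with 6.18% in Nr5a2 KD replicate 3, 6.75% in dKD replicate 3 and 6.17% in dKD replicate 4. The 3 Klf5 KD libraries (4.41, 8.28 and 11.8%) were all below both controls (12.9 and 13.2%), and the part of this in the Klf5 KD levels below was tested only by a fit with the share as a covariate.

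All 10 genes were below both control libraries in each of the 3 Klf5 KD libraries, a pattern held by 13.7% of the 12838 genes tested in this contrast, from which nothing is read here because the contrast chose the genes. Their Klf5 KD levels ran from 0 to 53.8% of control, with a median of 15.8%, or to 83.3% with a median of 23.9% when scaled to the ERCC RNA. The dKD levels ran from 5.39 to 88.2% of Nr5a2 KD, with a median of 46.9%. The 2 ranges are not compared, as 9 of the genes ranked high in the first contrast, so that their lower levels there follow from the choice. In this second contrast 4 of the 9 genes tested, Gng2, Kdelr3, Shisal2b and Lgals3, were lower in every dKD library than in every Nr5a2 KD library, and the share among the 13017 genes tested was 2.3%. Gm35248 held the pattern too but was too low to be tested. A decrease without overlap in both contrasts was found in 0.502% of the 11941 genes tested in both, and again nothing is read from it. As these are RNA amounts from whole pools, fewer cells and less RNA per cell cannot be told apart. Abundance is given throughout as scaled counts (CPM) after TMM normalisation, which brings libraries of different depth and composition to a common size.

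**Figure D1:**
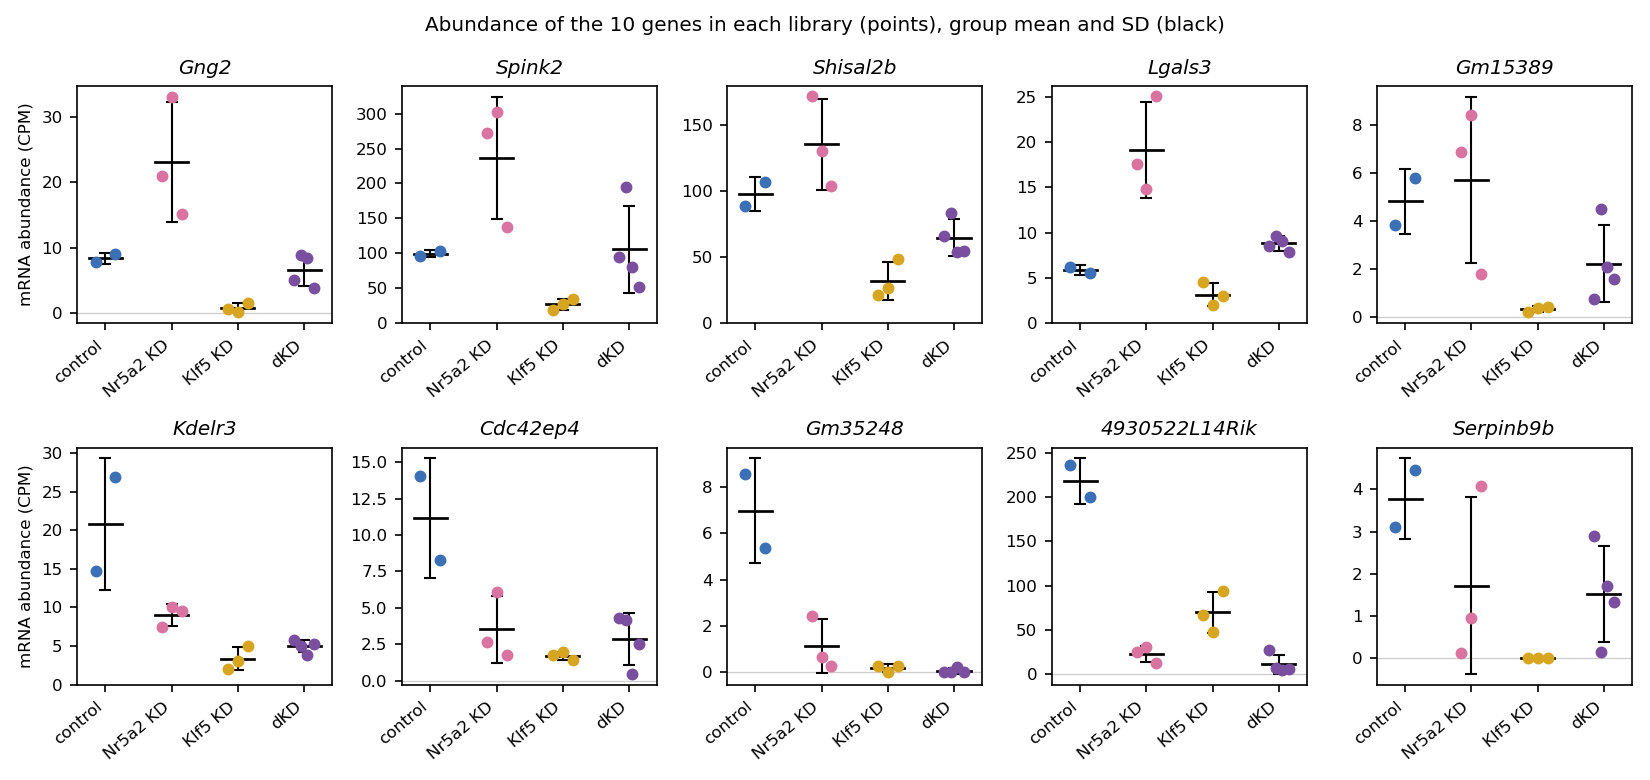
Abundance (CPM, linear axis) of each of the 10 genes in the 12 libraries, with points for libraries, a black line for the group mean and whiskers for the SD (n = 2 control, 3 Nr5a2 KD, 3 Klf5 KD, 4 dKD). The group mean was highest in Nr5a2 KD for Gng2, Spink2, Shisal2b, Lgals3 and Gm15389, and highest in control for Kdelr3, Cdc42ep4, Gm35248, 4930522L14Rik and Serpinb9b.

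Gng2 encodes a gamma subunit of heterotrimeric G proteins, which pairs with a beta subunit and carries the dimer to the membrane. It lies at chr14:19872559-19977627 on the minus strand of GRCm38, the build of all gene coordinates here. Gng2 was at 7.84 and 9.05 CPM in control, at 21.0, 33.0 and 15.2 in Nr5a2 KD, at 0.748, 0.233 and 1.57 in Klf5 KD, and at 5.16, 8.96, 8.39 and 3.86 in dKD. The Nr5a2 KD libraries were the highest and the Klf5 KD libraries the lowest, neither overlapping any other group, and the dKD libraries overlapped control. The log2 fold change was -3.36 (SE 0.622) in Klf5 KD against control and -1.82 (SE 0.358) in dKD against Nr5a2 KD, where it ranked 1st by p. The first of these was -2.67 with the mitochondrial share as a covariate. With the order of library numbers in the file headers as a block it was -2.43, from Klf5 KD replicate 3 alone against both controls. With the replicate number as a block it was -4.12, from replicates 1 and 2, as control has no replicate 3. The exons of Gng2 share 897 bases, 20.4% of their length, with the antisense gene Gm48283, and the unstranded reads of this stretch cannot be told apart.

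Cdc42ep4, an effector of the small GTPase CDC42 that acts on actin and septins, lies at chr11:113726850-113751881. It was at 14.1 and 8.26 CPM in control, at 2.68, 6.12 and 1.79 in Nr5a2 KD, at 1.78, 1.98 and 1.42 in Klf5 KD, and at 4.28, 4.20, 0.486 and 2.53 in dKD. Control stood above all other libraries, and the 3 knockdown groups overlapped. The log2 fold change was -2.70 (SE 0.448) in Klf5 KD against control but -0.31 (SE 0.645) in dKD against Nr5a2 KD.

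Kdelr3 encodes a KDEL receptor, which returns escaped chaperones from the Golgi to the endoplasmic reticulum (chr15:79516411-79527739). It was at 14.8 and 26.9 CPM in control, at 7.45, 10.1 and 9.58 in Nr5a2 KD, at 2.06, 3.03 and 4.98 in Klf5 KD, and at 5.79, 5.04, 3.89 and 5.31 in dKD. The levels stepped down from control to Nr5a2 KD and then to dKD without overlap, and Klf5 KD and dKD overlapped. The log2 fold changes under Klf5 siRNA were -2.68 (SE 0.442) without and -0.86 (SE 0.303) with Nr5a2 siRNA. The former was -1.91 with the mitochondrial share as a covariate, -2.09 with library sizes from the ERCC spike-in RNA and -2.16 without control replicate 2. With the header numbers as a block it was -2.07, from Klf5 KD replicate 3 alone against both controls.

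The protease inhibitors were Spink2 and Serpinb9b. Spink2, a Kazal-type inhibitor of serine proteases known from the sperm acrosome, lies at chr5:77205107-77211471 and was among the most abundant of the 10. It was at 95.9 and 103 CPM in control, at 272, 302 and 138 in Nr5a2 KD, at 19.1, 27.7 and 33.9 in Klf5 KD, and at 95.2, 196, 79.9 and 51.5 in dKD. Nr5a2 KD was above control in every library, Klf5 KD was below every other library, and dKD overlapped both control and Nr5a2 KD. The log2 fold change was -1.91 (SE 0.303) in Klf5 KD against control and -1.18 (SE 0.398) in dKD against Nr5a2 KD. Of 5 sperm markers 3 were detected, Acrv1 and Tnp2 had 0 counts, and their summed abundance was at most 2.75 CPM in any library.

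Serpinb9b, a clade B serpin (chr13:33027416-33041884), was at 3.11 and 4.46 CPM in control and had 0 counts in each of the 3 Klf5 KD libraries. In Nr5a2 KD it was at 0.116, 0.952 and 4.09 CPM, and in dKD at 2.90, 0.140, 1.70 and 1.33. Klf5 KD was the only group without a count, whereas Nr5a2 KD and dKD overlapped and varied widely within themselves. Against a floor of 3 counts over the Klf5 KD group (0.114 CPM), control was at least 33.2-fold higher and dKD at least 13.3-fold higher, limits that cover counting error only. The fitted log2 fold change in dKD against Nr5a2 KD, -0.17 (SE 0.943), rested on Nr5a2 KD replicate 3 and was 1.501 without it. Reads that mapped to several places were not counted, which limits the value of a gene with close paralogs, and 278 bases of its exons (8.30%) overlap the antisense gene Gm36099.

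Lgals3 encodes galectin-3, a lectin that binds beta-galactosides (chr14:47367751-47386160). It was at 6.21 and 5.51 CPM in control, at 17.6, 14.8 and 25.03 in Nr5a2 KD, at 4.49, 1.98 and 2.99 in Klf5 KD, and at 8.56, 9.67, 9.12 and 7.84 in dKD. It alone of the 10 separated all 4 groups without overlap, in the order Nr5a2 KD, dKD, control, Klf5 KD. Its log2 fold change was -0.91 (SE 0.486) in Klf5 KD against control, and it was among the 10 through dKD against Nr5a2 KD (-1.13, SE 0.260). The first of these was -1.34 in the fit with the mitochondrial covariate and -0.26 with ERCC-based library sizes, where the median of all genes in the contrast moved to 0.66.

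Galectin-3 is abundant in macrophages, and markers of blood cells were measured beside it. Of 4 such genes 2 were detected, Ptprc and Hbb-bs had 0 counts, Lyz2 had 12 counts over the 12 libraries and Hba-a1 had 1184. Their summed abundance per library ranged over 3.15–6.51 CPM (control), 6.80–17.5 (Nr5a2 KD), 5.13–8.79 (Klf5 KD) and 9.77–26.5 (dKD). Nearly all of this was Hba-a1. Every library with Nr5a2 siRNA was above both controls, the ranges of Nr5a2 KD and Klf5 KD overlapped, and its part in the Lgals3 result was not tested.

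Shisal2b, a Shisa-like gene for a predicted membrane protein, lies at chr13:104845283-104863893. It was at 88.5 and 107 CPM in control, at 172, 130 and 104 in Nr5a2 KD, at 21.4, 26.4 and 48.4 in Klf5 KD, and at 66.1, 83.6, 54.0 and 54.6 in dKD. Nr5a2 KD overlapped control, dKD lay below both, and Klf5 KD lay below dKD. Scaled to the ERCC RNA, the dKD mean was at 111% of control. The log2 fold changes under Klf5 siRNA were -1.63 (SE 0.348) without and -1.08 (SE 0.235) with Nr5a2 siRNA. The former was -0.92 with the mitochondrial share as a covariate, -1.08 with ERCC-based library sizes and -2.06 when blocked on the replicate number, and also without Klf5 KD replicate 3.

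The remaining genes are Gm35248 and Gm15389, both annotated as long intergenic non-coding RNAs, and 4930522L14Rik, a protein-coding gene known by its RIKEN clone. Gm35248 (chr15:38312293-38343139) was at 8.58 and 5.38 CPM in control and at 2.45, 0.680 and 0.255 in Nr5a2 KD. It was nearly lost with Klf5 siRNA, with 0.280, 0 and 0.285 CPM in Klf5 KD and 0, 0, 0.243 and 0 in dKD. Control was above all knockdown libraries, and every dKD library was below every Nr5a2 KD library by a margin of few reads. The 2 counts over dKD against 28 over Nr5a2 KD gave 5.37% of the Nr5a2 KD level, with a 95% exact interval of 0.620 to 21.3% for counting error only. The gene was too low for the filter in dKD against Nr5a2 KD, and its log2 fold change in Klf5 KD against control was -5.12 (SE 0.773).

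Gm15389 (chr1:107687008-107693514) was at 3.85 and 5.77 CPM in control, at 6.87, 8.43 and 1.79 in Nr5a2 KD, at 0.187, 0.350 and 0.427 in Klf5 KD, and at 0.755, 4.48, 2.07 and 1.57 in dKD. The Klf5 KD libraries were the lowest, and the other 3 groups overlapped. The log2 fold change was -3.91 (SE 0.714) in Klf5 KD against control and -1.38 (SE 0.616) in dKD against Nr5a2 KD.

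4930522L14Rik (chr5:109735990-109751886) was at 236.3 and 200.1 CPM in control, at 24.9, 30.7 and 12.4 in Nr5a2 KD, at 66.9, 47.9 and 94.3 in Klf5 KD, and at 26.7, 6.58, 4.26 and 5.91 in dKD. In contrast to the other 9 genes, its Klf5 KD libraries were above all those with Nr5a2 siRNA, and only dKD replicate 1 reached into the range of Nr5a2 KD. The log2 fold change was -1.67 (SE 0.308) in Klf5 KD against control and -1.07 (SE 0.553) in dKD against Nr5a2 KD, and the latter was -2.04 without dKD replicate 1.

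**Figure D2:**
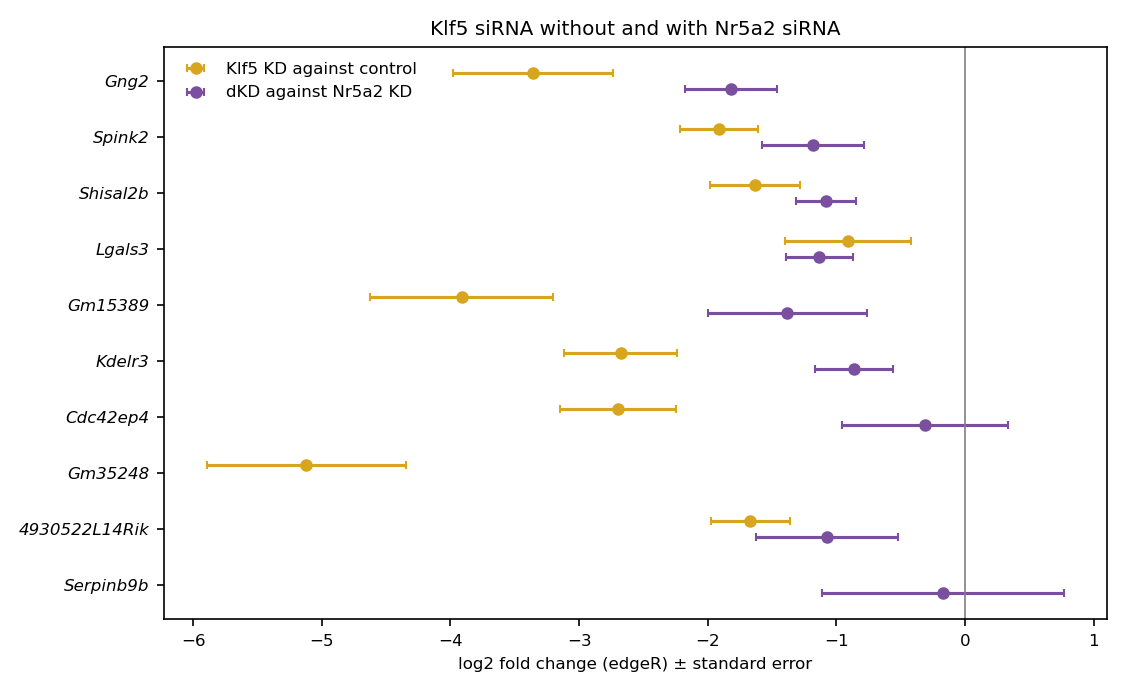
Log2 fold changes (edgeR, points) with their standard errors (bars) for Klf5 KD against control (5 libraries, yellow) and dKD against Nr5a2 KD (7 libraries, purple), the contrasts that chose the 10 genes. All fitted values are below 0, and 8 genes are drawn for both contrasts. Serpinb9b is not drawn for the first contrast because its Klf5 KD libraries had 0 counts, and Gm35248 was not fitted in the second.

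Per kilobase of exon, the control levels of the 10 genes ran from 126 CPM per kb for Spink2, 90.6 for 4930522L14Rik and 63.9 for Shisal2b down to 1.92 for Gng2 and 1.13 for Serpinb9b. By p, the genes ranked between 2nd (Gm35248) and 28th (Shisal2b) in Klf5 KD against control, apart from Lgals3 at rank 1740. In dKD against Nr5a2 KD, Gng2, Shisal2b and Lgals3 held ranks 1, 5 and 9, Spink2 and Kdelr3 ranks 97 and 125, and Cdc42ep4 and Serpinb9b ranks 8007 and 11060. The measure behind the ranking was not stated with the choice, and other genes stood above or between the chosen ones. Those of lowest p in the first contrast were Klf5 itself (rank 1), Calm5 (rank 4, log2 fold change -1.87, SE 0.305) and Klf11, another Krüppel-like factor (rank 8, -2.27, SE 0.404). Those of lowest p in the second were Klf5 (rank 2), Parpbp (rank 3, -1.65, SE 0.327) and Apoa1, the main protein of high-density lipoprotein (rank 4, -2.01, SE 0.409). Further genes also stood between the chosen ones in both contrasts.

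With the settings used here no gene passed the threshold in either contrast by itself. Calls required a change of at least 2-fold and, in the quasi-likelihood test of edgeR, a Benjamini-Hochberg adjusted p below 0.05, and 0% of the 12838 and of the 13017 genes were called lower or higher. At an unadjusted p under 0.05 there were 1088 and 447 genes, and DESeq2 called 42 lower and 8 higher in the first contrast and 4 lower and 0 higher in the second. In the first, 146 lower and 107 higher genes were called when blocked on the replicate number, and 15 lower without Klf5 KD replicate 3. Both siRNAs were also fitted as additive terms over all 12 libraries. There, 7 genes were called lower for Klf5 siRNA (0.0472% of 14830) and 0 higher (900 genes of either direction at an unadjusted p under 0.05, and 7 called higher by DESeq2), and with the replicate number as a block 0 were called. The 7 genes called lower were Klf5, Gm26531, Gng2, Gm35248, Shisal2b, Rgs19 and Ceacam10. The 3 of the 10 among them are not a result, since this term combines the contrasts that chose them.

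Markers of the oocyte and polar body were measured beside these levels, as RNA left from the oocyte is still present at this stage. All 6 were detected, and their summed abundance per library ranged over 89.9–95.9 CPM (control), 73.7–94.0 (Nr5a2 KD), 55.5–69.9 (Klf5 KD) and 54.4–118 (dKD). In Klf5 KD it was below both control libraries, and its part in the levels of the 10 genes was not tested. Markers of cumulus and granulosa cells were nearly absent: 4 of 7 were detected, Ptx3, Col1a2 and Inhba had 0 counts, and the sum reached at most 1.86 CPM.

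The response to Nr5a2 siRNA was no criterion in the choice of the genes, although the same libraries were used. The additive term for it is the log2 difference between libraries with and without Nr5a2 siRNA at equal Klf5 siRNA. Its sampling correlations with the contrasts that chose the genes are 0.018 and 0.022 if every library has equal variance. That condition was not shown for genes with few counts over Klf5 KD (Serpinb9b 0, Gm15389 8, Gng2 21), whose values may depend on the choice. The 10 genes split by this term. Gng2, Spink2 and Lgals3 rose, 4930522L14Rik fell, Gm35248 was called lower on control libraries that entered the choice, and Shisal2b, Gm15389, Kdelr3, Cdc42ep4 and Serpinb9b were not called. Without Gm35248, 3 were called higher and 1 lower of 9 tested, where the background was 6.74% called higher and 6.55% called lower of 14830 genes. The median log2 fold change of these 9 was 1.10 (0.03 for all genes), which is the value of Serpinb9b itself (SE 1.08). The Klf5 KD libraries of Serpinb9b had 0 counts and entered the choice, so nothing is read from this median. The median of the members was -0.45 in Nr5a2 KD against control and 1.47 in dKD against Klf5 KD. The p-values measure the spread between pools, which the labels do not tie to separate injection days.

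Gng2 rose by a log2 fold change of 2.14 (SE 0.394, adjusted p = 0.000785 by edgeR). Its control mean was 8.44 ± 0.852 CPM (SD, n = 2) and its Nr5a2 KD mean 23.1 ± 9.11 (SD, n = 3), against 0.849 ± 0.672 for Klf5 KD (SD, n = 3) and 6.59 ± 2.48 for dKD (SD, n = 4). Spink2 rose by 1.65 (SE 0.313, adjusted p = 0.00102 by edgeR), with group means of 99.3 ± 4.89 CPM in control, 236.9 ± 87.4 in Nr5a2 KD, 26.9 ± 7.44 in Klf5 KD and 106 ± 62.7 in dKD. Lgals3 rose by 1.55 (SE 0.238, adjusted p = 0.000162 by edgeR), with 5.86 ± 0.500 CPM in control, 19.1 ± 5.28 in Nr5a2 KD, 3.15 ± 1.26 in Klf5 KD and 8.80 ± 0.782 in dKD. Each of these genes was thus below control in Klf5 KD and above it in Nr5a2 KD, and with both siRNAs Gng2 was at 78.1%, Spink2 at 106% and Lgals3 at 150% of control. Scaled to the ERCC RNA these were 130.5, 169 and 255%, which puts Gng2 above control. Their calls held in all 19 alternatives, 7 other settings and 12 fits with a library left out.

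4930522L14Rik fell by 2.95 on the log2 scale (SE 0.376, adjusted p = 3.07e-05 by edgeR), also in all 19 alternatives, and was at 10.4% of control in Nr5a2 KD, 31.9% in Klf5 KD and 4.98% in dKD. Gm35248 fell by 2.28 on the log2 scale (SE 0.752, adjusted p = 0.0372 by edgeR), on few counts. It had 28 counts over the Nr5a2 KD libraries, 5 over Klf5 KD and 2 over dKD, so that the value rests on control against Nr5a2 KD. As the high control libraries also entered the choice of this gene, the value is no measure apart from the choice. Its call was lost in 10 of 19 alternatives, among them library sizes set by the ERCC spike-in RNA (log2 fold change -1.75, adjusted p = 0.122) and the fit without control replicate 1 (-1.88, adjusted p = 0.183). Both genes were below control in every knockdown library.

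Shisal2b had a log2 fold change of 0.76 (SE 0.228, adjusted p = 0.0234 by edgeR), under the 2-fold limit, and passed it with ERCC-based library sizes (1.22, adjusted p = 0.00206), a scaling that moved the median of all genes to 0.45. Gm15389 had 1.33 (SE 0.571, adjusted p = 0.108 by edgeR), and was called in 5 of 19 alternatives, one of them the fit without Nr5a2 KD replicate 3 (1.68). This library, with a low mitochondrial share, was the lowest of its group for 7 of the 10 genes (Gng2, Spink2, Shisal2b, Gm15389, Cdc42ep4, Gm35248 and 4930522L14Rik) and the highest for Lgals3 and Serpinb9b. The log2 fold changes of Kdelr3 (-0.28, SE 0.343), Cdc42ep4 (-0.42, SE 0.530) and Serpinb9b (1.10, SE 1.08) were smaller than or about as large as their errors, with adjusted p-values of 0.623, 0.633 and 0.524 by edgeR. For Kdelr3 the sign turned with ERCC-based library sizes (0.27) and without control replicate 2 (0.090).

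**Figure D3:**
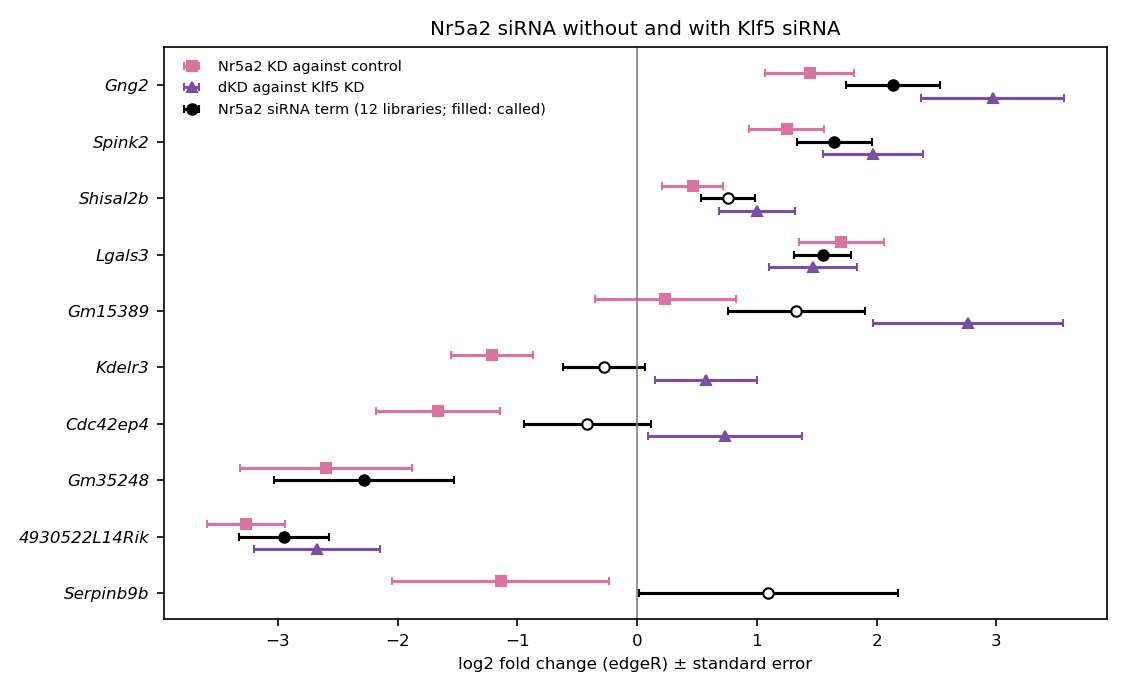
Log2 fold changes (edgeR) with standard errors for Nr5a2 siRNA, as the additive term over 12 libraries (black, filled where called), Nr5a2 KD against control (pink squares) and dKD against Klf5 KD (purple triangles). Gng2, Spink2, Shisal2b, Lgals3 and Gm15389 lie above 0 and 4930522L14Rik below 0 in all 3, while Kdelr3 and Cdc42ep4 are below 0 against control and above 0 against Klf5 KD. Serpinb9b is not drawn for dKD against Klf5 KD, where its Klf5 KD libraries had 0 counts, and Gm35248 was not fitted there.

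The separate comparisons that make up this term share libraries with the choice of the genes, since a high control or a low Klf5 KD value moves them in opposite directions, so their values are given as a description, without a test. In Nr5a2 KD against control, Gng2 (log2 fold change 1.44, SE 0.371), Spink2 (1.25, SE 0.314) and Lgals3 (1.70, SE 0.354) were above 0, as were Shisal2b (0.46, SE 0.255) and Gm15389 (0.24, SE 0.589). Below 0 were 4930522L14Rik (-3.27, SE 0.325), Gm35248 (-2.60, SE 0.719) and Serpinb9b (-1.14, SE 0.907). In dKD against Klf5 KD, Gng2 (2.97, SE 0.596), Gm15389 (2.76, SE 0.797), Spink2 (1.97, SE 0.418), Lgals3 (1.47, SE 0.368) and Shisal2b (1.00, SE 0.316) were above 0 and 4930522L14Rik (-2.68, SE 0.526) below it. The Gm15389 value stands against 8 counts over the Klf5 KD libraries. Serpinb9b had 0 counts in Klf5 KD and Gm35248 was not fitted there. Kdelr3 was at -1.21 (SE 0.341) in the first and 0.58 (SE 0.426) in the second comparison, and Cdc42ep4 at -1.66 (SE 0.516) and 0.73 (SE 0.642). Whether the effect of Nr5a2 siRNA differs between the backgrounds was not tested for these genes, as the choice fixes part of that difference.

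Over the 12 libraries, Gng2, Spink2, Shisal2b and Gm15389 had the most similar profiles. Pearson's r of their log2 CPM was 0.937 between Gng2 and Spink2, 0.930 between Gng2 and Shisal2b, 0.935 between Spink2 and Shisal2b, and 0.884 to 0.898 between Gm15389 and each of them. These are descriptions over libraries that share the knockdowns by which the genes were chosen. Lgals3 followed Gng2 (r = 0.873), whereas 4930522L14Rik was apart, with r = -0.484 to Lgals3 and 0.668 to Gm35248. To the mean profile of the 10 genes, Kdelr3 was the closest (r = 0.923) and 4930522L14Rik the most distant (0.287). Each of the 10 is part of that mean, which raises its r, so these values are not compared with those of outside genes. The genes outside the 10 with the profiles most like that mean, among genes of at least 1 CPM, were Actn1 (r = 0.951 over 12 libraries), Klf3 (0.916), Dmtn (0.896), Trim32 (0.896) and Gm11309 (0.881). Actn1 encodes an actin cross-linking alpha-actinin, and was at 6.58 ± 0.955 CPM in control, 3.87 ± 0.0788 in Nr5a2 KD, 1.11 ± 0.528 in Klf5 KD and 2.52 ± 0.482 in dKD. Klf3, a Krüppel-like factor that is mainly a repressor, was at 35.2 ± 3.40, 30.2 ± 9.79, 11.5 ± 1.72 and 22.7 ± 4.25 CPM in the same order.

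The promoters of Gng2, Spink2, Shisal2b and Gm15389 are shown because these genes had the most similar profiles. Each is the 250 bases before a RefSeq start site on GRCm38.p6, written 5′ to 3′ on the strand of the gene, with capitals for matches to CCNCNCCC, the core recognized by KLF and SP factors, on either strand.
Gng2, chr14:19976694-19976943, minus strand: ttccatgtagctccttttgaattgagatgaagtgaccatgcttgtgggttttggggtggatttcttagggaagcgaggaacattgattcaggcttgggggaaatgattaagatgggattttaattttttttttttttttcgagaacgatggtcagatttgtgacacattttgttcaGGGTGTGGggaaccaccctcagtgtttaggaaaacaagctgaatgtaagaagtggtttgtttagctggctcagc
Spink2, chr5:77211472-77211721, minus strand: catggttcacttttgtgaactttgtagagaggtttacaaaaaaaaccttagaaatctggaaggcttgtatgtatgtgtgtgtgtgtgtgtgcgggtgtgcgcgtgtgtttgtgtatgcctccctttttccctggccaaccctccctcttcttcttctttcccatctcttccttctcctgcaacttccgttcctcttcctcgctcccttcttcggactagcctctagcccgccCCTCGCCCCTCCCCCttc
Shisal2b, chr13:104863894-104864143, minus strand: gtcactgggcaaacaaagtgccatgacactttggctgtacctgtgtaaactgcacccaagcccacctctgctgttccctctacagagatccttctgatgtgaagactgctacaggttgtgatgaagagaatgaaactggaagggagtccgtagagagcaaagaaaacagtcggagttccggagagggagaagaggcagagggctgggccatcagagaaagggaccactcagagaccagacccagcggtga
Gm15389, chr1:107686750-107686999, plus strand: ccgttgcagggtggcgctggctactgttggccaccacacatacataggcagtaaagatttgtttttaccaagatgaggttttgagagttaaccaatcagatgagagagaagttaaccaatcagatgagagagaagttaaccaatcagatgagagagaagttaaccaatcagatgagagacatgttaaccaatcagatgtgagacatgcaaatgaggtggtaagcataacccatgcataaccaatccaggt
The Gng2 window held 1 match, beginning 74 bases before the start, the Spink2 window held 3 overlapping matches close to the start, and the windows of Shisal2b and Gm15389 held 0. Genes with much the same profile thus differed in whether the core was in this window. The Gm15389 window had 6 copies of CCAAT (in lower case above), a number reached by 0.0579% of all windows.

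RefSeq windows were found for 9 of the 10 genes, 16 windows in all. The CCNCNCCC core was in at least 1 window of 6 of the 9, namely Gng2, Spink2, Kdelr3, Serpinb9b, Cdc42ep4 and Lgals3, and in 48.4% of all genes with a window. TCAAGG, the core of the NR5A half-site, was in windows of Spink2 and 4930522L14Rik, 2 of the 9, against 14.1% of all genes. The Spink2 window shown above had none, and the 2 windows that did lie almost wholly on annotated exons of Spink2 itself (one with 247 of its 250 bases). The 4930522L14Rik matches lay in 3 overlapping windows at RefSeq starts upstream of the gene span given above, and the other 2 windows of this gene had none. The longer TCAAGGNCA was in 0 of the 9 against 1.60%. CCAAT was in windows of 4 of the 9 against 37.5% of genes, with both strands searched for each motif. These shares favour genes with several windows, and the 9 genes had 16 windows where all 26994 genes had 32817. By window, the KLF and SP core was in 8 of 16 against 45.9% of all windows, TCAAGG in 5 of 16 against 12.5%, and CCAAT in 4 of 16 against 33.8%, and some windows of one gene overlap. TCAAGGNCA contains the shorter sequence. The GC content of the windows of these genes had a median of 51.8%, and that of all windows was 52.4%. A match is a run of letters and not a binding site, and these windows leave out enhancers.

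The genes related to the 10 by family were examined next. In 7 lists of 96 genes (G protein beta and gamma subunits, clade B serpins, KDEL receptors and their ligands, CDC42 and its effectors, Kazal-type Spink inhibitors, galectins, Shisa and Shisa-like genes) 43 genes were tested, and in the additive Klf5 siRNA term edgeR called 0 lower (background 0.0472%) and 0 higher, with 6 at an unadjusted p under 0.05. DESeq2 called 0 of them as well, with 7 at an unadjusted p under 0.05, and without a filter on low counts 1 of 74 was called lower, the serpin Serpinb6c (-1.53, adjusted p = 0.00338 by edgeR). The list medians ran from -1.17 for the 2 clade B serpins tested to 0.10 for the 15 CDC42 genes. With Nr5a2 siRNA, 8 of the 43 were called lower and 3 higher, where the background was 6.55% and 6.74%. When libraries were scaled to the ERCC counts these became 6 and 8, and over all genes 468 and 1940.

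Among G protein subunits, Gng10 was higher with Nr5a2 siRNA (log2 fold change 2.52, SE 0.587, adjusted p = 0.00477 by edgeR), as Gng2 was. The gamma subunit gene Gng7 (-3.23, SE 0.577) and the beta subunit gene Gnb1 (-2.03, SE 0.203) were lower, the latter from 49.5 ± 0.587 CPM in control to 10.9 ± 1.87 in Nr5a2 KD. Of the 15 tested genes around CDC42, 4 were called lower and 0 higher (background 6.55% lower), led by Cdc42ep5 (-3.43, SE 0.303), Cdc42se1 (-1.43, SE 0.279) and Cdc42ep2 (-1.21, SE 0.348), and the last of these was lost with ERCC-based library sizes (-0.77) and without control replicate 2 (-1.13). The fourth, Cdc42ep3 (-1.16, SE 0.361), lost its call in 5 of 19 alternatives, among them ERCC-based library sizes (-0.75). The clade B serpin Serpinb6c was higher (3.09, SE 0.678). Shisal2a was higher (1.33, SE 0.210), Shisa7 (-2.86, SE 0.791) was lower and lost its call without control replicate 1 (-2.60), and Lgalsl, a galectin-like gene, was lower (-1.497, SE 0.312). Of the 8 genes of the KDEL receptor list, 0 were called in either term by edgeR. For Nr5a2 siRNA the ligands Hspa5 (0.91, SE 0.150, adjusted p = 0.000301 by edgeR), P4hb (0.89, SE 0.165) and Calr (0.80, SE 0.217), named after their values were seen, had adjusted p-values under 0.05 and missed the 2-fold limit.

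**Figure D4:**
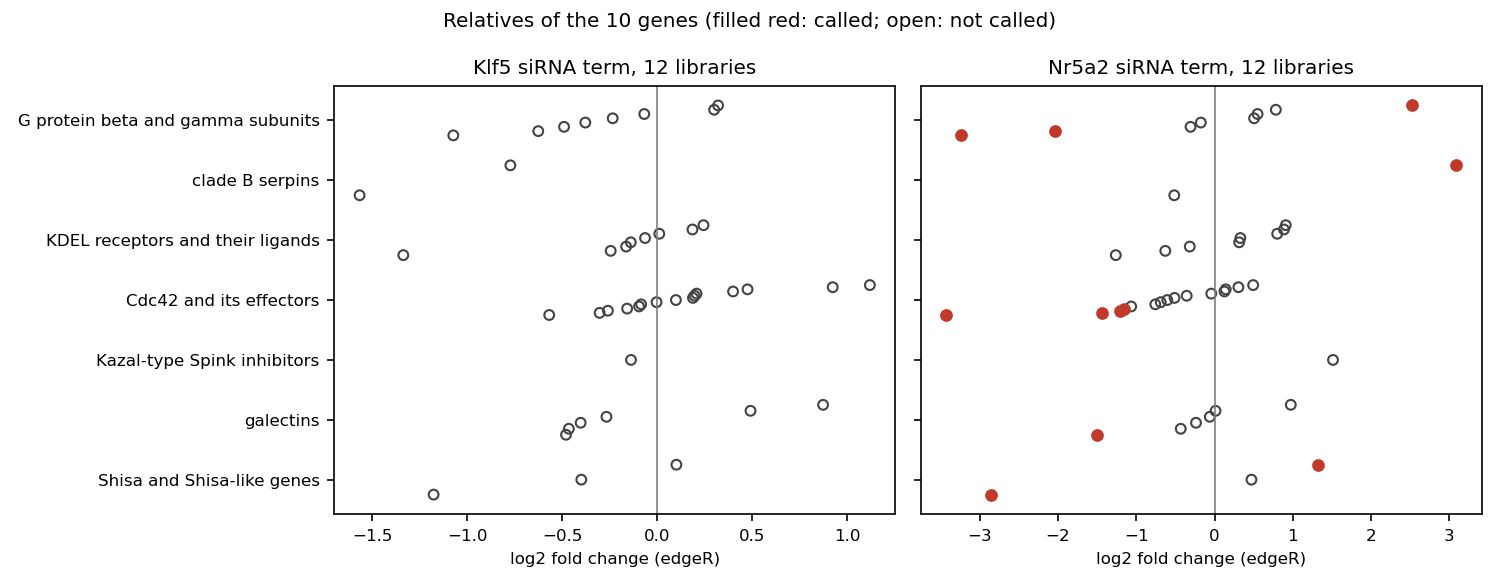
Log2 fold changes (edgeR) of the 43 tested relatives of the 10 genes for the Klf5 siRNA term (left) and the Nr5a2 siRNA term (right) over 12 libraries, with filled red points for called genes, open points for the others and rows for the 7 lists. The left panel has 0 called genes and the right panel 11, of which 8 lie below 0.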

How the data were processed

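RNA-seq libraries were prepared from pools of 8-cell embryos with SMART-seq v4, which amplifies polyadenylated RNA without molecular identifiers or strand. The authors trimmed reads with Trim Galore 0.6.2, used STAR for alignment to a GRCm38 index that also held the ERCC and H2B-EGFP sequences, and obtained exon counts of read pairs per gene from featureCounts 2.0.1. The filter on the alignments is not given in the sources used here. The deposited files hold estimated counts, not normalised: pairs over several genes were split between them, so 7.3 to 8.66% of genes were not whole, and multi-mapping reads were left out. They were rounded before testing. CPM used TMM factors.

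Tests used edgeR 4.0.16 (R 4.3.3; quasi-likelihood, TMM, filterByExpr at its minima of 10 counts and 15 in total) and were tested on simulated data. Calls required at least 2-fold and an adjusted p below 0.05. Single contrasts used their own libraries, and both siRNA terms came from an additive fit over 12 libraries. The study used DESeq2, here an alternative (1.42.0), next to DESeq2's size factors, ERCC library sizes, no filter, the replicate number as a block, the mitochondrial share as a covariate, and each library left out. Deviations of same-numbered Nr5a2 KD and dKD libraries correlated at 0.13, 0.222 and 0.254, each over 0.1. Nr5a2 KD replicate 3 correlated at 0.263 with dKD replicate 4, whose library number in the file headers lies in the same run. All other pairs of these 2 groups were at 0.0998 or below. Same-numbered libraries of Nr5a2 KD and Klf5 KD were at 0.00918, 0.0598 and -0.204, and those of Klf5 KD and dKD at -0.116, 0.0412 and -0.159. Gene names followed GENCODE M21, and sequences RefSeq.

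The 10 genes, the lists of relatives and the marker lists were chosen with earlier results of these data known. Genes named besides them were the 3 others of lowest p in each contrast that chose the 10, the 5 most alike in profile and up to 3 called genes per list. Figures were drawn with matplotlib 3.10.9.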

Additional observations from a re-analysis of the deposited data

Results flagged for a closer look

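The 4 dKD libraries were examined for a library far from the others in 12 genes (the 10 genes, Klf5 and Nr5a2), and 2 genes had a Dixon's ratio above its 95% critical value. Chance gives about 1 in 20 per gene, and the genes share the same 4 libraries. 4930522L14Rik was far higher in dKD replicate 1 than in the other dKD libraries (ratio 0.896), at 26.7 CPM against 4.26 to 6.58. Gm35248 was highest in dKD replicate 3 (ratio 1.0), where it had 2 counts while the other dKD libraries had 0, a difference that counting error can give.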

How the results depend on the processing

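With Nr5a2 siRNA, Gng2, Spink2, Lgals3 and 4930522L14Rik were called in all 19 alternatives, with log2 fold changes of 1.89 to 2.65, 1.36 to 2.00, 1.44 to 2.00 and -3.48 to -2.58. Kdelr3 turned sign with ERCC library sizes (0.27) and without control replicate 2 (0.090, the highest of -0.51 to 0.090 with a library left out), and Gm35248 lost its call in 10. Blocking on the replicate number (replicate block) across the 12 libraries, where most group pairs share only a number, gave -2.34 for Gm35248 (adjusted p = 0.0615 by edgeR). It gave 891 lower and 860 higher genes for Nr5a2 siRNA and 0 for Klf5 siRNA. In dKD against Nr5a2 KD the block gave 0. In Klf5 KD against control it gave 146 lower and 107 higher, from replicates 1 and 2 only, as control has no replicate 3.

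The counts over all genes moved as follows. For Nr5a2 siRNA (971 lower, 999 higher), ERCC library sizes gave 468 and 1940, and leaving out a library 895 to 1046 and 841 to 1010. For Klf5 siRNA (7 lower, 0 higher), DESeq2 gave 31 and 7, no filter 42 and 17, ERCC library sizes 2 lower, and leaving out a library 0 to 10 lower and 0 higher. The 0 came without Nr5a2 KD replicate 2 or dKD replicate 4. In Klf5 KD against control, DESeq2 gave 42 and 8, no filter 69 and 45, ERCC library sizes 4 and 21, the order of the library numbers in the file headers as a block, added after seeing the data, 22 and 10, and leaving out a library 0 to 15 lower and 0 to 1 higher, the most without Klf5 KD replicate 3. In dKD against Nr5a2 KD, DESeq2 gave 4 lower, no filter 17 and 3, the mitochondrial share as a covariate 1 lower, the header-number block 4 lower, and leaving out a library 0 to 3 lower, the most without dKD replicate 1. The cause was not tested. Genes with under 10 counts in a library, above all Gm35248 and Serpinb9b, are limited by depth.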
